A study of Saccharomyces cerevisiae with 15 samples.

Results

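Deletion of *JHD2*, which encodes the budding yeast demethylase of histone H3 lysine 4 (H3K4), went with higher transcript levels of most ribosome assembly genes and lower levels of most general stress and glycogen genes. These are the sense and antisense RNA levels of 3 *jhd2Δ* cultures, set against 3 wild-type (WT) cultures. The 6 libraries were chosen by strain label from the 15 of the series, and the tables held 5712 sense and 5122 antisense features, of which 5619 and 2640 passed a filter on low counts and were tested. Both strains are MATa, carry *lys2-128δ*, *his3Δ20* (the labels' spelling, which differs from that of the study's strain table) and *ura3-52*, lack both chromosomal pairs of H2A and H2B genes (*hta1-htb1Δ*, *hta2-htb2Δ*), and live on a *HIS3* plasmid with *HTA1-HTB1*. In *jhd2Δ* (YMC70) KanMX replaces the gene. Its precursor was made from the parent of the WT strain (HTABWT) and then received the plasmid, so that the mutant was not made from HTABWT itself. Both were grown in YPAD, a rich glucose medium, at 30 °C to mid-log phase, as independent cultures. The other 9 libraries come from *set1Δ*, from a strain with Flag-tagged *SET1* under the *ADH1* promoter (*SET1* overexpression) and from one with the *SET1-G990E* allele under the same promoter.

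Set1, the catalytic subunit of the COMPASS complex, adds methyl groups to H3K4, mostly near the start of transcribed genes, and Jhd2, a JmjC-domain protein, takes them off. Deacetylase complexes and other chromatin proteins with PHD fingers read the methylated forms. In growing yeast, ribosome biogenesis genes and the environmental stress response are controlled in opposite directions by the nutrient kinases PKA and TORC1. The comparison asks which transcripts, on either strand, differ when the demethylase is missing.

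The libraries held 7685050 to 7933237 sense counts in *jhd2Δ* and 7874153 to 8679152 in WT, and 89883 to 93374 antisense counts in *jhd2Δ*, against 94812 to 104229 in WT. Values below are TMM-normalised counts per library, except where raw (unnormalised) counts are named. *JHD2* (chromosome X, 644304 to 646490, minus strand) had 0, 0 and 1.93 normalised counts in *jhd2Δ*, against 197, 164 and 161 in WT. The 4 transcripts nearest to it, *STE24*, *ILM1*, *DMO1* and *ATP2*, had log2 fold changes of -0.24, -0.41, 0.27 and -0.25, and none was called. Genes specific to MATa cells, such as *STE2*, the alpha-factor receptor gene (3945 to 4557 raw counts in *jhd2Δ*, 5075 to 5286 in WT), were abundant. *MFA1*, another of them, had 352 to 408 raw counts in *jhd2Δ* and 435 to 636 in WT. Of the alpha-specific genes, which MATa cells do not use, *MF(ALPHA)1* had at most 9 and 12 raw counts and *MF(ALPHA)2* at most 16 and 8. *STE3* had 78 to 98 raw counts in *jhd2Δ* and 68 to 92 in WT, and *SAG1* 251 to 294 and 293 to 387, so these transcripts were not absent. *HTA2*, deleted from the chromosome, had 48 to 68 raw counts in *jhd2Δ* and 68 to 80 in WT, and *HTA1* had 4449 to 4932 raw counts in *jhd2Δ* and 4341 to 4639 in WT. In a principal component analysis of the 15 sense libraries the WT cultures stood apart from all 4 mutants on the second component. On the first component, with 41.69% of the variance, WT (14.34 to 16.33) lay within the range of *set1Δ* (9.59 to 19.39). There *jhd2Δ* (-10.96 to -8.08) lay among the libraries of *SET1* overexpression (-9.30 to -6.44) and *SET1-G990E* overexpression (-13.84 to -10.57). On the second component, with 23.0% of the variance, *jhd2Δ* lay between 4.06 and 5.40, WT between -13.5 and -11.8, and every other library at -5.66 or above. The main lists and some of the genes are therefore also set against the other mutants further on. Whether a difference from WT belongs to the deletion or to these WT cultures cannot be told apart where every mutant differs from WT in the same way.

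Calls required a change of at least 1.5-fold and p under 0.05 in edgeR's quasi-likelihood test after Benjamini-Hochberg adjustment over all transcripts, and sizes are log2 fold changes of *jhd2Δ* over WT where no other pair is named. Of 5619 sense transcripts tested, 390 (6.94%) were called higher and 296 (5.27%) lower in *jhd2Δ*. Most changes were moderate. The median size of a call was 0.81 on the log2 scale for the rises and 0.77 for the falls, 111 rises and 63 falls reached 2-fold, and 4 and 6 reached 4-fold. A test that the change exceeds 1.5-fold (glmTreat) left 175 higher and 97 lower. All 3 *jhd2Δ* libraries lay above all 3 WT libraries for 384 of the 390 rises and below them for 290 of the 296 falls, whereas this non-overlap held for 24.5% and 26.4% of all transcripts tested. The transcripts that rose were less abundant in WT than those that fell. Their median WT level was 245 normalised counts, that of the transcripts that fell 881, and that of all transcripts 490. The WT libraries that give these levels also enter the fold change, so the levels and the calls are not independent.

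**Figure D1:**
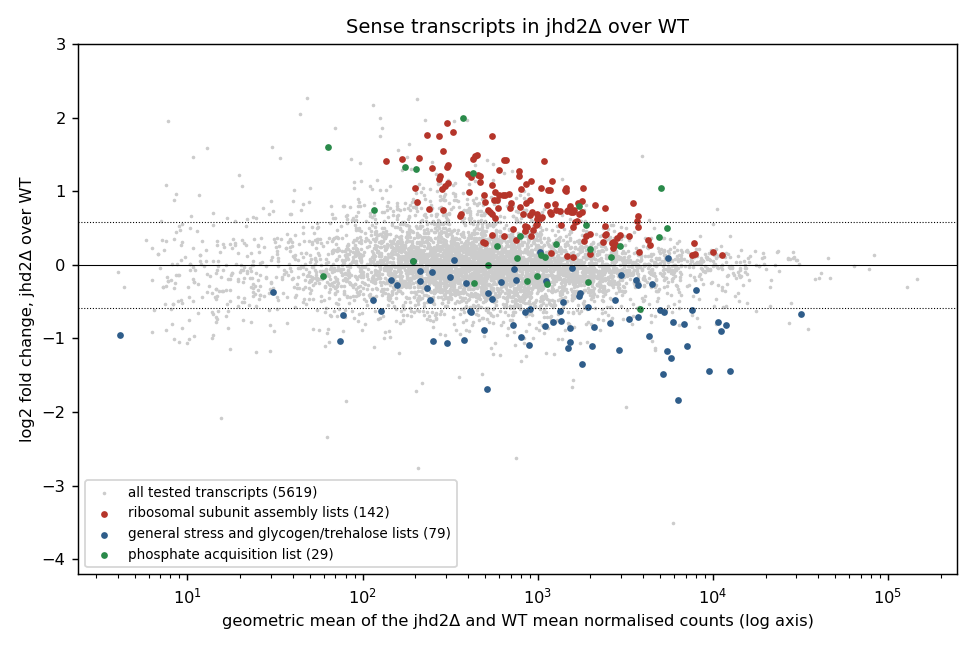
Log2 fold change in *jhd2Δ* over WT (vertical axis) against the geometric mean of the group means in normalised counts (horizontal log axis) for the 5619 sense transcripts tested, with dotted lines at 1.5-fold and *JHD2* below the axis range. The 142 members of the 2 ribosomal subunit assembly lists all lie above 0, and most of the general stress and glycogen or trehalose members lie below it.

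Most genes that build the ribosome rose. The small subunit list holds the factors that cut, modify and fold the precursor of the 18S rRNA. Of its 70 members tested, 50 were called higher (71.4%, against 6.94% of all transcripts) and none lower, all 70 had a fold change above 1, and the median log2 fold change was 0.83, against -0.01 over all transcripts. *DBP8* (chromosome VIII, 442181 to 443476, plus strand), which encodes an RNA helicase of this pathway, had 707, 493 and 580.1 normalised counts in *jhd2Δ*, against 166, 142 and 161 in WT. It rose 3.8-fold (log2 1.93, standard error 0.16, adjusted p = 3.39e-08), with no overlap between the groups. *DHR2*, another helicase gene, rose with a log2 fold change of 1.75. *LCP5* and *UTP6*, which encode parts of the small subunit processome, rose by 1.76 and 1.54 (log2). The 20 members not called included genes of the box C/D core and of large scaffold proteins, *NOP1*, the fibrillarin gene, at 0.18, *NOP56* at 0.15 and *RRP5* at 0.14 (log2).

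The large subunit list behaved alike, with 48 of 72 members higher (66.7%), none lower and a median of 0.73. *SSF1* (chromosome VIII, 229335 to 230696, plus strand), which encodes a factor of early 60S precursors, had 1126, 926 and 964 normalised counts in *jhd2Δ*, against 348, 295 and 256 in WT (log2 1.75, adjusted p = 3.49e-09). *REI1*, which acts on cytoplasmic 60S precursors, rose by 1.81, *MAK16* by 1.44 and *IPI1*, a subunit gene of the Rix1 complex, by 1.44 (log2). Summed over the list, the large subunit assembly genes had 133030 to 135688 normalised counts in *jhd2Δ* and 87106 to 93226 in WT, so the libraries of the groups did not overlap. The proteins of the finished ribosome did not follow. Of 138 cytosolic ribosomal protein genes 3 were called higher, *RPS28B*, *RPS9A* and *RPL41A*, each with a near-identical copy elsewhere in the genome that can share its reads. The median of that list was 0.12, and no mitochondrial ribosomal protein gene was called among 69.

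Part of the machinery that makes and modifies the stable RNAs rose as well. Of 40 genes of RNA polymerase I and III and their initiation factors, 10 were higher and none lower (median 0.36). The share higher was 25%, against 6.94% of all transcripts. *RRN11*, a subunit gene of the polymerase I core factor, had 272, 193 and 229 normalised counts in *jhd2Δ* and 71.8, 65.3 and 68.5 in WT (log2 1.75, adjusted p = 1.6e-07). *RRN3*, the gene of the initiation factor that polymerase I needs to load, rose by 1.01 and the polymerase III subunit gene *RPC17* by 1.01 (log2). The genes of the largest subunits, *RPA190* and *RPO31*, had 0.25 and 0.38 (log2) and were not called. Of 61 tRNA modification and processing genes, 27 were higher (44.3%) and none lower (median 0.48). *DUS1* (chromosome XIII, 108806 to 110077, plus strand), which encodes a dihydrouridine synthase, had 300.5, 261 and 265 normalised counts in *jhd2Δ* and 97.7, 95.6 and 85.6 in WT (log2 1.57, adjusted p = 9.83e-09), and the tRNA methyltransferase genes *TRM2* and *TRM11* rose by 1.42 and 1.36. Among 33 genes of the RNA exosome, its cofactors and noncoding RNA decay, 7 rose (21.2%) and none fell. These were the exosome genes *RRP4* (log2 1.10), *RRP42* (0.94), *MTR3* (0.90), *CSL4* (0.83) and *RRP43* (0.68), and 2 genes of the TRAMP complex, which marks RNAs for the exosome. *TRF5*, its noncanonical poly(A) polymerase, had 301, 273 and 319 normalised counts in *jhd2Δ* and 119, 90 and 115 in WT (log2 1.47), and *AIR1* rose by 0.94. Diphthamide is a modified histidine of translation elongation factor 2, and 4 of the 9 genes of its synthesis rose (44.4%). The J-protein gene *JJJ3* had 106, 79.2 and 85.1 normalised counts in *jhd2Δ* and 19.9, 21.8 and 22.8 in WT, a log2 fold change of 2.06.

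Upstream of these genes short sequences recur that were not used to choose them. PAC (GATGAG), which the repressors Dot6 and Tod6 bind, and RRPE (AAAATTT), which Stb3 binds, are common upstream of ribosome biogenesis genes. A window of 250 bases, from 350 to 101 bases before the start codon, was read in the reference genome (sacCer3, RefSeq) for 5534 tested genes and searched on both strands. The windows of *DBP8*, *MAK16* and *DUS1* are shown because each holds both motifs, PAC and RRPE in capitals (CTCATC in *DBP8* is PAC read from the other strand). That of *DBP8* is chrVIII:441831-442080, read on the plus strand, that of *MAK16* chrI:101246-101495 on the minus strand and that of *DUS1* chrXIII:108456-108705 on the plus strand.
DBP8: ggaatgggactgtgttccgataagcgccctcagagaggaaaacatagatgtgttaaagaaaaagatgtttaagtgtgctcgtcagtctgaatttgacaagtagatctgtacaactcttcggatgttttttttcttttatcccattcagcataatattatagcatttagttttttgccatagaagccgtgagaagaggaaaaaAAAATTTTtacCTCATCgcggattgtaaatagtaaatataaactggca
MAK16: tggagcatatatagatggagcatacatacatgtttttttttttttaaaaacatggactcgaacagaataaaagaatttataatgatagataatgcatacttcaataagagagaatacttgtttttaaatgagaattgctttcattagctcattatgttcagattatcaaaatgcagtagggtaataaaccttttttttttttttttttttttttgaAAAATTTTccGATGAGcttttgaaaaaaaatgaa
DUS1: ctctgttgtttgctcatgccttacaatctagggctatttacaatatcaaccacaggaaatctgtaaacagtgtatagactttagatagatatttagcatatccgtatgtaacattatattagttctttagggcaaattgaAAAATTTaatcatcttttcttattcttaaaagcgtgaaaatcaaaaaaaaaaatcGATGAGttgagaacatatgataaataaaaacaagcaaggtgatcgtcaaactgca

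In *DBP8* PAC lies 137 bases and RRPE 148 bases before the start codon, and in *MAK16* PAC lies 124 and RRPE 134 bases before it, with overlapping RRPE matches on both strands in each. In *DUS1* PAC starts 155 and RRPE 210 bases upstream. Over all genes called higher, 36.8% of windows held PAC, against 11.8% of those called lower and 15.5% of all windows. RRPE was in 48.1% of the windows of genes called higher, in 14.2% of those called lower and in 22.6% of all. Windows with both motifs made up 23.4% of the risers, 1.38% of the fallers and 6% of all genes, and of the 332 genes with both, 91 rose (27.4%) with a median log2 fold change of 0.29. In the small subunit list 58.6% of windows held PAC and 80% RRPE, and in the large subunit list 61.1% and 83.3%. Ribosomal protein genes held PAC in 13% of windows, and tRNA modification genes in 24.6%. *TOD6* itself rose (819, 753 and 768 normalised counts in *jhd2Δ*, 205, 193 and 199.8 in WT). *DOT6*, its paralogue, had a log2 fold change of 0.11 (adjusted p = 0.56) and *STB3* one of -0.09 (adjusted p = 0.754).

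**Figure D2:**
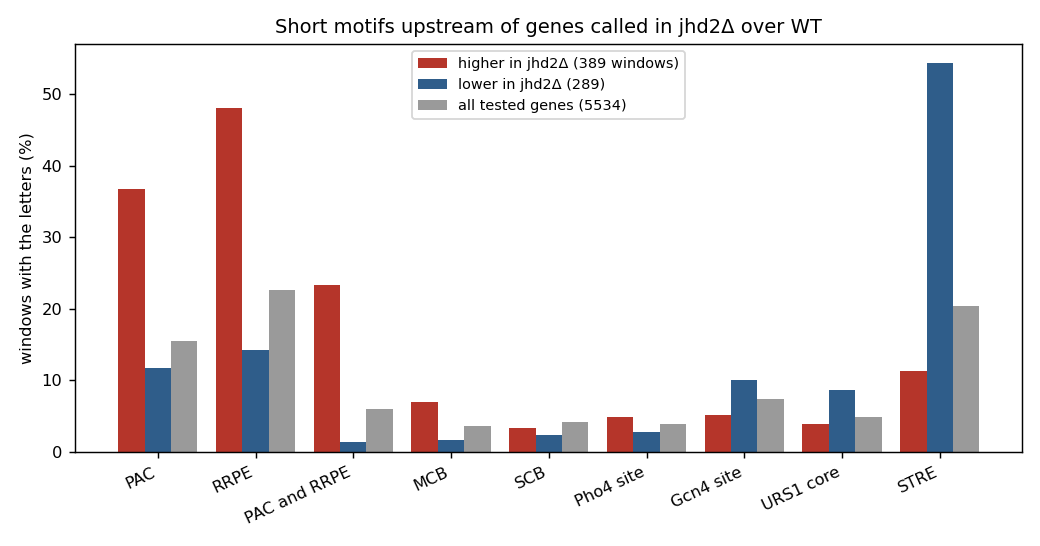
Share of 250-base upstream windows (vertical axis, %) that hold each motif on either strand, for genes called higher in *jhd2Δ* (389 windows), genes called lower (289) and all tested genes (5534). PAC and RRPE stand above the share of all genes in the genes called higher, and STRE stands above it in the genes called lower.

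The list with the lowest median was that of energy storage. Of 29 genes of glycogen and trehalose metabolism, 17 were called lower (58.6%, against 5.27% of all transcripts), none higher, and all 29 had a fold change below 1 (median log2 -0.78). Yeast stores glucose as glycogen and trehalose when growth slows. *GLC3* (chromosome V, 133120 to 135234, plus strand), the glycogen branching enzyme gene, had 3029.9, 3018 and 3327 normalised counts in *jhd2Δ*, against 9715, 9506 and 6951 in WT (log2 -1.48, standard error 0.12, adjusted p = 3.12e-08). Genes of breakdown fell with those of synthesis. The debranching enzyme gene *GDB1* had a log2 fold change of -1.15 and the glycogenin gene *GLG1* one of -1.05. On the trehalose side *TSL1* and *TPS2*, subunit genes of the synthase complex, had -0.82 and -0.78 and *NTH1*, the neutral trehalase gene, -0.71 (log2), all of them called. *RGI1*, a gene of energy metabolism under respiratory growth counted in this list, had 3603, 2908 and 3499.9 normalised counts in *jhd2Δ* and 12497, 12549 and 10527 in WT, a log2 fold change of -1.83. The list members summed to 67187 to 73525 normalised counts in *jhd2Δ* and 125215 to 146742 in WT.

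The general stress genes, which the zinc-finger activators Msn2 and Msn4 switch on, overlap with that list, and 36 of 57 were lower (63.2%) and none higher (median log2 -0.65). *HXK1* (chromosome VI, 253592 to 255049, minus strand), which encodes hexokinase 1, had 7138, 7514 and 8241 normalised counts in *jhd2Δ* and 21072, 21826 and 19125 in WT (log2 -1.44, adjusted p = 7.84e-08). *MRK1*, a gene of the GSK-3 kinase family in this list, had 271, 273 and 319 normalised counts in *jhd2Δ* and 1102, 942 and 742 in WT (log2 -1.69). The membrane-protecting protein gene *HSP12* had 980.3, 809 and 1017 normalised counts in *jhd2Δ* and 1539.7, 1556 and 1718 in WT (log2 -0.78, adjusted p = 9.71e-06). *MSN4* itself fell (log2 -0.85), whereas *MSN2* stood at 0.11 and was not called. *CTT1*, the cytosolic catalase gene, and *MSC1*, which the study names, fell (log2 -0.62 and -0.79), although *CTT1* was at -0.58 without WT replicate 1 and -0.56 without WT replicate 2, short of 1.5-fold. *HSP26*, the small heat shock protein gene, had 0.17 (log2) and was not called. *TPK3*, a catalytic subunit gene of PKA, which holds this program down, rose to 379, 331 and 332 normalised counts in *jhd2Δ*, against 169.5, 172 and 167 in WT (log2 1.03, adjusted p = 8.84e-08), and *TPK2* and the regulatory subunit gene *BCY1* had -0.50 and -0.43 and were not called.

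The element that Msn2 and Msn4 bind, STRE (AGGGG), is shown in capitals in the windows of *GLC3* (chrV:132770-133019, plus strand), *HXK1* (chrVI:255150-255399, minus strand) and *HSP12* (chrVI:106906-107155, plus strand), a glycogen, a glucose and a stress gene that fell.
GLC3: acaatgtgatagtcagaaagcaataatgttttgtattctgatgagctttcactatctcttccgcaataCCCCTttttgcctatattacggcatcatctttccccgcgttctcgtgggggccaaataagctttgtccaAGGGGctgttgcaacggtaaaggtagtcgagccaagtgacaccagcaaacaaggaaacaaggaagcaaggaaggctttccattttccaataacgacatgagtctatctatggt
HXK1: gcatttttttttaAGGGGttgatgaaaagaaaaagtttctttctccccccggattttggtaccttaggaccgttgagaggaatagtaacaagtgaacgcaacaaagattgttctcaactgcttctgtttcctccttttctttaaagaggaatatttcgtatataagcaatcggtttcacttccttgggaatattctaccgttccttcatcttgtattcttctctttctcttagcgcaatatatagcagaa
HSP12: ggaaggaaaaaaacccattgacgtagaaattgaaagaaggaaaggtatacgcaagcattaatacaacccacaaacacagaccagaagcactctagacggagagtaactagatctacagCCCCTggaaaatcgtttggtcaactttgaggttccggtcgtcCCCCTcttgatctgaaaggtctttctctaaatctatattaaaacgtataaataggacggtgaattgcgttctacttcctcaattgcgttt

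STRE, which also matches as CCCCT on the other strand, was in 54.3% of the windows of genes called lower, in 11.3% of those called higher and in 20.4% of all windows. Of the 1127 genes with it 157 fell (13.9%), against 3% of the 4407 genes without it. The share was 82.5% in the general stress list and 72.4% in the glycogen and trehalose list. In *GLC3* the elements start 282 and 213 bases before the start codon, in *HXK1* 337, and in *HSP12* 232 and 190.

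Heat shock chaperones did not move as a group. Of 28 genes, 5 rose and *HSP104* and *SSA4* fell (log2 -0.67 and -0.61), and the median was -0.05. The shares were 17.9% higher and 7.14% lower, against 6.94% and 5.27% of all transcripts. *SSA4* stood at -0.57 without WT replicate 2 and -0.50 without *jhd2Δ* replicate 1, short of 1.5-fold. The membrane heat shock gene *HSP30* was 1 of the 5, at 0.61 (log2), and 0.47 without WT replicate 3. *BTN2*, whose product sequesters misfolded proteins and prions, had 6118, 7229 and 6396 normalised counts in *jhd2Δ* and 2959.8, 2132 and 2023 in WT (log2 1.47, standard error 0.23, adjusted p = 3.88e-05). Its paralogue *CUR1* rose by 0.71, *APJ1*, a J-protein gene, by 1.15 and *FES1*, a nucleotide exchange factor gene, by 0.74 (log2). *HSP82* and *SSA1* had -0.34 and -0.36 (log2) and were not called.

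Of 37 glucose-repressed genes, which serve the use of other carbon sources, 12 fell (32.4%, against 5.27% of all transcripts) and none rose (median -0.47). *CAT8*, which encodes the activator of gluconeogenic genes, had 331, 393 and 368 normalised counts in *jhd2Δ* and 940.4, 851 and 749 in WT (log2 -1.22, adjusted p = 1.91e-06). *GUT2* and *GUT1*, genes of glycerol use, fell (log2 -1.09 and -0.78), as did the invertase gene *SUC2* (-0.82) and the mitochondrial aldehyde dehydrogenase gene *ALD4* (-1.06). The targets of Cat8 that make glucose, *PCK1* and *FBP1*, had -0.18 and -0.51 (log2) and were not called. Respiratory chain and ATP synthase genes all had fold changes below 1, and 8 of 39 were called lower (20.5%, median -0.37). Among them was *NDI1*, the internal NADH dehydrogenase gene, at -1.05 (log2). In the TCA cycle all 4 succinate dehydrogenase subunit genes fell, *SDH1* to 668, 761 and 922 normalised counts in *jhd2Δ*, against 1413, 1603 and 1449 in WT, with *SDH2*, *SDH4* and *SDH3* at -0.92, -0.81 and -0.62 (log2). The *SDH3* value was -0.57 without *jhd2Δ* replicate 3, short of 1.5-fold. Over the 23 TCA cycle genes 6 fell and 1 rose (26.1% and 4.35%, against 5.27% and 6.94% of all transcripts). The citrate synthases split. The mitochondrial form *CIT1* fell (log2 -0.70) and the peroxisomal form *CIT2* rose to 1295, 1166 and 1092 normalised counts in *jhd2Δ*, against 597, 631 and 547 in WT (log2 1.00). Among hexose transporters the high-affinity genes *HXT4*, *HXT7*, *HXT6* and *HXT2* fell (log2 -1.93, -1.67, -1.60 and -0.73), *HXT6* and *HXT7* being near copies that can share reads, and the low-affinity genes *HXT1* and *HXT3* had 0.54 and -0.37 and were not called.

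**Figure D3:**
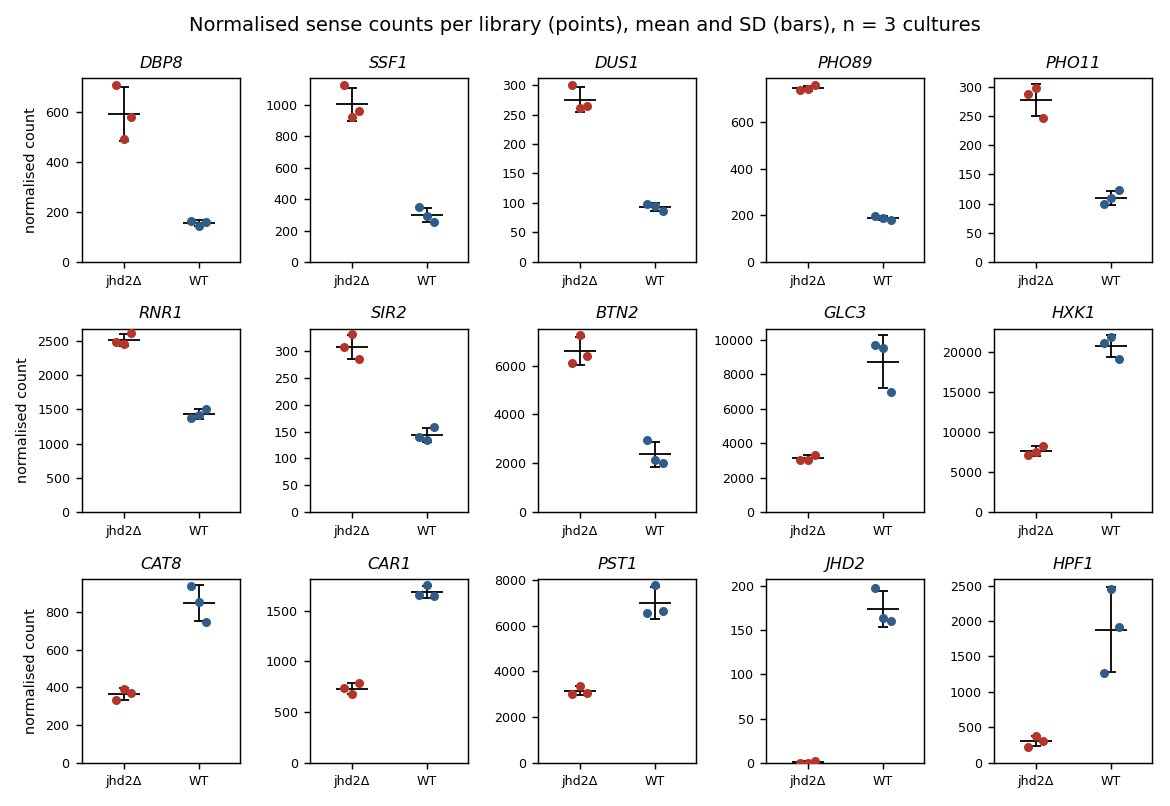
Normalised sense counts (vertical axes, from 0) of 15 genes in the 3 *jhd2Δ* and the 3 WT libraries, with each library as a point and the mean and SD as bars. In each panel the points of one strain lie wholly above those of the other.

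Phosphate genes rose in part. Pho4 switches them on when phosphate is short, and chromatin at the *PHO5* promoter is a classic model of gene activation. Of 29 genes of phosphate uptake, release and polyphosphate, 8 rose and 1 fell (27.6% and 3.45%, against 6.94% and 5.27% of all transcripts). *PHO89* (chromosome II, 796798 to 798522, minus strand), the sodium-phosphate cotransporter gene, had 736, 741 and 758 normalised counts in *jhd2Δ*, against 195, 188 and 179 in WT, a 3.98-fold rise (log2 1.99, standard error 0.083, adjusted p = 1.04e-11). The secreted acid phosphatase genes rose, *PHO5* by 0.80, *PHO11* by 1.33 and *PHO12* by 1.24 (log2), the last pair being near-identical copies. *SPL2*, which encodes a regulator of phosphate transport, had 356, 305 and 293 normalised counts in *jhd2Δ* and 112, 129.7 and 144 in WT (log2 1.31), and *PHM6* rose by 1.60 and the main transporter gene *PHO84* by 1.04. The polyphosphate polymerase subunit genes *VTC1*, *VTC3* and *VTC4* had 0.55, 0.50 and 0.38 (log2), short of 1.5-fold. None of 11 signalling genes was called, with *PHO4* at 0.46 and *PHO81* at 0.49 (log2).

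*PHO3*, the thiamine-regulated acid phosphatase gene that lies directly downstream of *PHO5* on the same strand of chromosome II, went the other way. It had 3167, 3194 and 3011 normalised counts in *jhd2Δ*, against 4687, 4960.5 and 4579 in WT (log2 -0.60, adjusted p = 5.59e-08), with *PHO5* at 2350.0, 2349 and 2072 in *jhd2Δ* and 1247, 1372 and 1279 in WT. The *PHO3* fall is close to the 1.5-fold limit, at -0.55 without WT replicate 2 and -0.58 without *jhd2Δ* replicate 3, both short of it. The Pho4 site CACGTG, which the factor Cbf1 also binds, was in 16 of the 29 windows of the phosphate list (55.2%), against 3.87% of all windows. It is in capitals in the windows of *PHO89* (chrII:798623-798872, minus strand) and *SPL2* (chrVIII:375201-375450, minus strand), 323 and 147 bases before the start codon.
PHO89: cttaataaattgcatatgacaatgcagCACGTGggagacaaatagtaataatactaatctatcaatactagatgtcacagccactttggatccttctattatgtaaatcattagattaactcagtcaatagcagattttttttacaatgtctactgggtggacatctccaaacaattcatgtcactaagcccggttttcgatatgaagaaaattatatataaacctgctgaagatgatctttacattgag
SPL2: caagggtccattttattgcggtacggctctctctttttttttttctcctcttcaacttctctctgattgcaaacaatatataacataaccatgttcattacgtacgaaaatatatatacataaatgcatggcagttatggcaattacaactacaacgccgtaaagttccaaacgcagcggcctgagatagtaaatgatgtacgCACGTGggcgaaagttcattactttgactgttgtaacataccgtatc

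Over all genes the Pho4 site was in 4.88% of the windows of those called higher and in 2.77% of those called lower.

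The cell cycle genes that were called were all higher. Of 31 genes of G1 and S phase, 10 rose (32.3%) and none fell (median 0.28). Of 25 genes of G2 and M phase, 4 rose (16%) and none fell (median 0.23). Over all transcripts 6.94% rose. *CLB5*, the S-phase cyclin gene, had 169, 154 and 163 normalised counts in *jhd2Δ* and 73.8, 65.3 and 98 in WT (log2 1.03, adjusted p = 1.33e-06). *MCD1*, the cohesin subunit gene, rose by 0.83, *FKH1*, a forkhead factor gene, by 1.11, and *RNR1*, the large subunit gene of ribonucleotide reductase, by 0.81 (log2). The G1 cyclin gene *CLN3* had -0.53 and *SWI4*, a subunit gene of the SBF factor, -0.09 (log2), neither called. In bulk RNA a larger share of cells in a phase and more RNA per cell cannot be told apart. The MluI cell cycle box MCB (ACGCGT), which the MBF factor binds, was in 6.94% of the windows of genes called higher, 1.73% of those called lower and 3.58% of all, and in 45.2% of the G1 and S phase list. SCB (CACGAAA), the element of the SBF factor, was in 3.34% of the windows of genes called higher, 2.42% of those called lower and 4.17% of all, and in 9.68% of that list. MCB is shown in capitals for *RNR1* (chrV:298600-298849, plus strand), 306 bases before the start codon.
RNR1: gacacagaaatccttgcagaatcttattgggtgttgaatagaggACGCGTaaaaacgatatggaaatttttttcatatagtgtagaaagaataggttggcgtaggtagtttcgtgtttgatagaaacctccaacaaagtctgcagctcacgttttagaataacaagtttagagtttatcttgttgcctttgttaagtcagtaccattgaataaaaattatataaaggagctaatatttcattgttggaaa

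Of 57 cell wall genes 11 fell (19.3%, against 5.27% of all transcripts), none rose and 46 were not called (median -0.33). *PST1*, which encodes a secreted GPI protein of the wall, had 3019, 3367 and 3036 normalised counts in *jhd2Δ* and 6531, 7775 and 6631 in WT (log2 -1.15, adjusted p = 6.37e-08). *PIR3* and *HSP150*, genes of the Pir family of wall proteins, fell (log2 -1.48 and -0.87), as did the mannoprotein gene *SED1* (-0.79). In amino acid metabolism *CAR1*, the arginase gene, fell to 734, 678 and 784 normalised counts in *jhd2Δ*, against 1658, 1755 and 1646 in WT (log2 -1.20), and *ARG4* and *ARG1* of arginine synthesis fell too (-1.01 and -0.80). *ARG80*, a regulator gene of both branches, rose by 1.07 (log2). Among 49 other amino acid synthesis genes only *LEU2* was called (log2 -0.66), and the 33 proteasome genes gave no call. *INO2*, the activator gene of phospholipid synthesis, had 259, 238 and 239.8 normalised counts in *jhd2Δ* and 61.8, 79.5 and 61.8 in WT (log2 1.85), although of the other 26 phospholipid and fatty acid genes only *OPI3* was called, lower at -0.72. The largest sense rise was that of *YGR035C*, an uncharacterised gene, with 114, 91.8 and 111 normalised counts in *jhd2Δ* and 18.9, 22.7 and 23.8 in WT (log2 2.26), and *YGR079W* and *YOR338W* rose to a like extent (log2 2.17 and 1.99). *HO*, the mating type switching endonuclease gene, *SET6*, a SET-domain gene, and *BMT6*, an rRNA methyltransferase gene, rose as well (log2 2.25, 1.95 and 1.86). The *SET6* rise rests on few reads, with 18, 15 and 14 raw counts in *jhd2Δ* and 5, 3 and 4 in WT (standard error 0.42). Among the 12 largest falls were also *YMR206W* and *ZNF1*, a zinc-finger factor gene of respiratory growth (log2 -1.85 and -1.71). *SFG1*, which encodes a factor of pseudohyphal growth, had 761, 621 and 592 normalised counts in *jhd2Δ* and 163, 152 and 196 in WT (log2 1.95).

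The lists of other H3K4 pathway genes are short, so their counts are not read as a result about the pathway. Over all sense transcripts 12.2% were called in either direction, against 12.5% of the COMPASS genes and 5% of the deacetylase genes below. *SET1* had 862, 952 and 956 normalised counts in *jhd2Δ* and 859, 859.9 and 782 in WT (log2 0.15, adjusted p = 0.108) and was not called. Among the 8 COMPASS genes *BRE2* alone was called, with 269, 303 and 292 normalised counts in *jhd2Δ* and 181, 188 and 166 in WT (log2 0.69). Besides *JHD2* the JmjC family showed 1 call. *GIS1*, a stress transcription factor gene, fell to 1041, 1244 and 1105 normalised counts in *jhd2Δ*, against 1882, 2088 and 1864 in WT (log2 -0.78), while *RPH1*, *ECM5* and *JHD1* had -0.16, -0.11 and 0.11. None of 9 genes of H3K4 methylation readers and none of 10 histone genes was called. Of 20 deacetylase genes of the Set3, Rpd3 and Sir complexes only *SIR2*, the gene of the silencing deacetylase, was called. It had 306, 331 and 285 normalised counts in *jhd2Δ* and 141, 134 and 158 in WT (log2 1.09, adjusted p = 2.11e-08), with *SIR3* at -0.16 and *SIR4* at 0.31.

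Set against the other mutants, *jhd2Δ* gave fewer calls. Over *set1Δ* 185 transcripts were higher and 282 lower in *jhd2Δ* (3.29% and 5.02% of 5619), over *SET1* overexpression 61 and 46 (1.09% and 0.819%), and over *SET1-G990E* overexpression 23 and 34 (0.409% and 0.605%). For the small subunit list, where 50 of 70 members were higher than in WT, 11 were higher than in *set1Δ*, 2 than with *SET1* overexpression and 0 than with *SET1-G990E* overexpression, and the medians in these comparisons were 0.28, 0.24 and 0.06. *DBP8* had log2 fold changes of 0.85, 0.44 and -0.03 in the same order. The glycogen and trehalose list had 10 of 29 members lower than in *set1Δ*, 1 lower than with *SET1* overexpression and 0 than with *SET1-G990E* overexpression (medians -0.40, 0.08 and 0.14), and the general stress list 8, 1 and 0 of 57. In the phosphate list 2 of 29 members were higher and 2 lower than in *set1Δ*, and 6 were higher than with *SET1* overexpression and 4 than with *SET1-G990E* overexpression, shares of 20.7% and 13.8% beside 1.09% and 0.409% of all transcripts, with 1 lower in each case. *PHO89* stood 1.47 and 1.61 above these strains (adjusted p = 4.31e-10 and 8.99e-11) and 0.17 above *set1Δ* (adjusted p = 0.0686), on the log2 scale. *PHO5* was lower than in *set1Δ* (log2 -1.32, adjusted p = 3.69e-11) and higher than in the overexpression strains (1.03 and 0.75). *CAR1* had log2 fold changes of -0.95 and -1.08 over the overexpression strains, both called, and -0.05 over *set1Δ*, not called. The same 3 *jhd2Δ* libraries enter each of these comparisons.

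The large subunit, tRNA modification, polymerase, exosome and G1 and S phase lists also gave fewer rises against each mutant than against WT. The glucose-repressed and cell wall lists gave no fewer falls against *set1Δ* than against WT. Of the large subunit list 7 of 72 members were higher than in *set1Δ*, and 0 than in either overexpression strain. The tRNA modification list gave 8 of 61 higher than in *set1Δ*, the polymerase list 1 of 40 and the exosome list 2 of 33, and each gave 0 against both overexpression strains. In the G1 and S phase list 2 of 31 were higher than in *set1Δ*, 1 was higher and 1 lower than with *SET1* overexpression, and 0 differed from *SET1-G990E* overexpression. The glucose-repressed list had 14 of 37 members lower and 1 higher than in *set1Δ*, but none lower and 3 and 2 higher than with *SET1* and *SET1-G990E* overexpression. The respiratory list had 3 of 39 lower than in *set1Δ* and none lower than in the overexpression strains, and the cell wall list had 15, 4 and 2 of 57 lower than in *set1Δ* and with *SET1* and *SET1-G990E* overexpression. *BTN2* had log2 fold changes of 0.71 over *set1Δ*, -0.38 over *SET1* overexpression and -0.35 over *SET1-G990E* overexpression, of which only the one over *set1Δ* was called. The same held for *CIT2* (1.15, -0.01 and -0.19 on the log2 scale), *TPK3* (0.83, 0.18 and 0.02) and *HXT4* (-1.24, -0.15 and -0.06). *SFG1* was called over *set1Δ* and *SET1* overexpression (log2 1.88 and 0.85) but not over *SET1-G990E* overexpression (0.43).

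**Figure D4:**
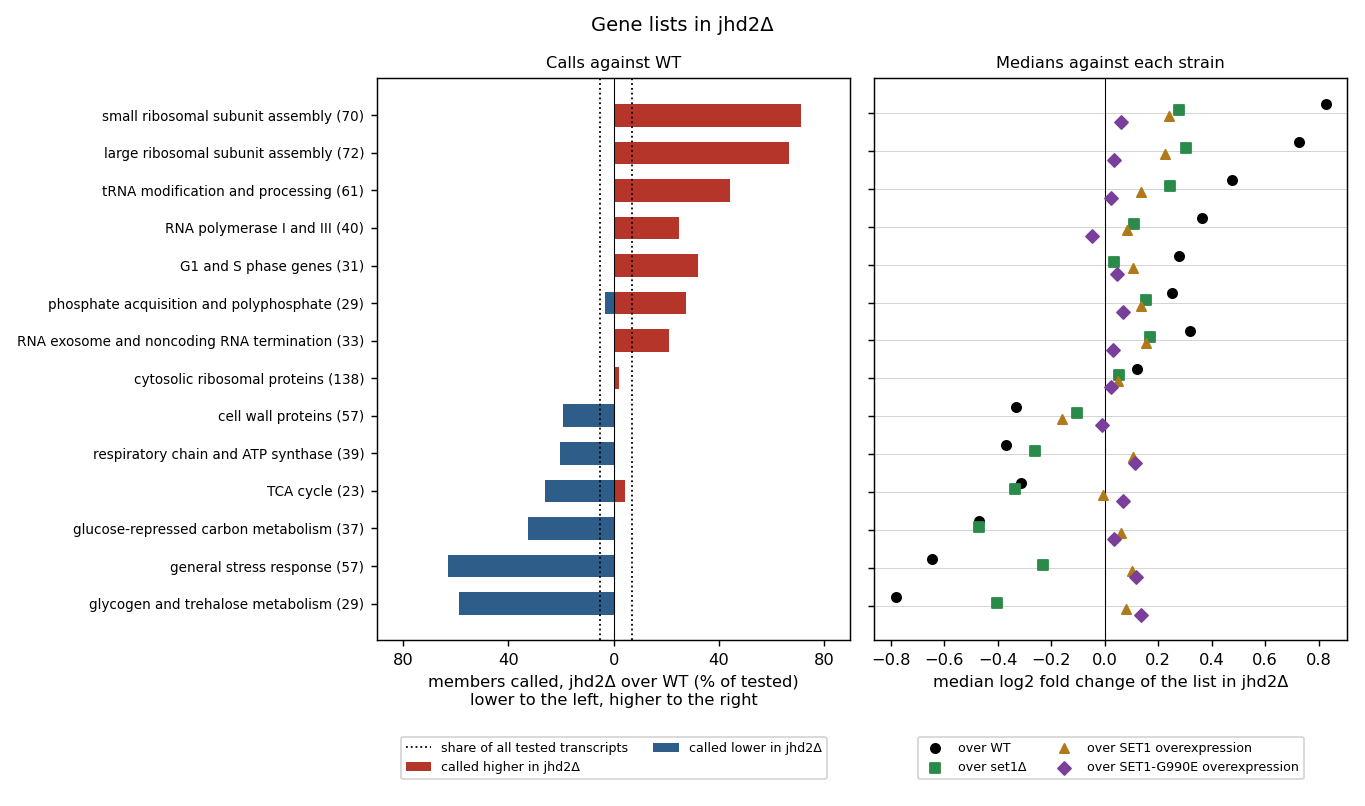
Left, share of the tested members of 14 gene lists called higher (to the right) or lower (to the left) in *jhd2Δ* over WT, with the number of members in brackets and dotted lines at the shares of all transcripts. Right, median log2 fold change of each list in *jhd2Δ* over WT and over each other mutant. The small subunit list has a median of 0.83 over WT and 0.06 over *SET1-G990E* overexpression.

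Transcripts that set *jhd2Δ* apart from every other strain were few. Apart from *JHD2*, 2 were called higher than in WT and than in each of the other 3 mutants, and 5 lower (with *JHD2*, 0.0356% and 0.107% of the transcripts tested). *FMP48*, a putative mitochondrial kinase gene, had 449, 482 and 409 normalised counts in *jhd2Δ*, against 148, 106 and 89.4 in WT. Its log2 fold change was 1.97 over WT, 1.29 over *set1Δ*, 1.93 over *SET1* overexpression and 1.30 over *SET1-G990E* overexpression. *FUI1*, the uridine permease gene, had 631, 619 and 634 normalised counts in *jhd2Δ* and 428, 372 and 357 in WT (log2 0.70), and between 0.62 and 0.86 over the mutants. The genes lower than in every strain were *PHO3*, *ANB1*, *PIR5*, *HPF1* and *CSS1*. *ANB1*, an isoform gene of translation factor eIF5A used at low oxygen, had 214, 198 and 203 normalised counts in *jhd2Δ* and 321, 319 and 345 in WT (log2 -0.68). *PIR5*, of the Pir wall protein family, had 19, 35.8 and 29 normalised counts in *jhd2Δ* and 141, 138 and 147 in WT. *CSS1*, a gene related to the wall mannoprotein gene *HPF1* that can share reads with it, had 69.9, 101 and 68.6 normalised counts in *jhd2Δ* and 347, 722 and 554 in WT, and *HPF1* had 229, 375 and 310.4 in *jhd2Δ* and 1264, 2458 and 1912 in WT. In all 5 the *jhd2Δ* and WT libraries did not overlap, as in 290 of the 296 falls and 26.4% of all transcripts tested. Overlap with the libraries of the other mutants was not examined.

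Calls were also counted by position. Within 20 kb of an end 16 of 138 transcripts fell (11.6%) and 5 rose (3.62%), against 280 (5.11%) and 385 (7.02%) of the 5481 further inside. Medians of the 16 chromosomes lay between -0.07 and 0.02 on the log2 scale. Ranked by WT level per kilobase, 154 of 1124 transcripts in the lowest quintile rose (13.7%) and 40 fell (3.56%), and in the highest quintile 11 rose (0.979%) and 109 fell (9.70%). The WT libraries that rank the genes also enter the fold change. Of 1420 divergent gene pairs tested, 25 had both members called, 15 with both higher, 5 with both lower and 5 in opposite directions. Of 1437 convergent pairs 22 had both called (6, 5 and 11 in the same classes), and of 2664 tandem pairs 57 (22, 11 and 24). Single transcripts were called at a share of 12.2%, and whether pairs exceed what that share gives was not tested. Over all sense transcripts 6.94% rose and 5.27% fell. Among 85 noncoding RNA features tested, 1 rose and 7 fell, all but *RUF23* small nucleolar RNAs (*SNR61*, a guide for rRNA methylation, 9.98, 9.66 and 2.9 normalised counts in *jhd2Δ*, 41.9, 35 and 20 in WT). Without *jhd2Δ* replicate 3 the rise, that of *SNR18*, and the falls of *RUF23*, *SNR56* and *SNR67* were no longer called, which leaves 4 of the falls. *SNR74* lost its call without WT replicate 2, WT replicate 3 or *jhd2Δ* replicate 1.

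On the antisense strand 74 of 2640 transcripts were called higher (2.8%) and 90 lower (3.41%) in *jhd2Δ*, 6.21% in all. The libraries of the strains did not overlap in 68 of the rises and 85 of the falls, and in 24.2% of all transcripts tested. These rest on few reads, with a median WT level of 14.2 normalised counts over all tested and 23.4 and 34.1 over the calls. They were less stable than the sense calls, since 25 of the 74 and 33 of the 90 were called whichever library was left out, against 324 of 390 and 208 of 296 on the sense strand. Scaled by the sense totals in place of the antisense totals, 51 were higher and 140 lower, the rises falling to 26.7% of the calls, against 45.1%, with a median over all transcripts of -0.11.

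Antisense reads over *PHO84* (chromosome XIII, 24037 to 25800, minus strand) fell. There were 15.5, 19 and 29.1 normalised counts in *jhd2Δ*, against 81, 62.5 and 79.4 in WT (log2 -1.80, standard error 0.2, adjusted p = 3.98e-12), while the sense transcript of the same gene was higher, with 7252, 7505 and 7157 in *jhd2Δ* and 3545, 3734 and 3341 in WT. The antisense fall was also seen against both overexpression strains (log2 -1.90 and -1.74), with -0.57 against *set1Δ*, which was not called. Of all antisense transcripts 1.48% were called lower than with *SET1* overexpression, 1.67% than with *SET1-G990E* overexpression and 7.65% than in *set1Δ*, with 1.52%, 0.947% and 6.06% higher. *MTH1*, which encodes a repressor of hexose transporter genes, showed the reverse, with 62.1, 40 and 58.3 antisense normalised counts in *jhd2Δ* and 12.8, 14.5 and 9.92 in WT (log2 2.09), and on the sense strand 923, 883 and 961 in *jhd2Δ* and 3047, 2744 and 2376 in WT (log2 -1.56). The antisense reads of 2 stress genes that fell in sense, *SOL4* and *YGP1*, were higher than in WT and than in each other mutant, the 2 transcripts of which this held (0.0758% of those tested, with 0.189% lower than in every strain). *SOL4*, a 6-phosphogluconolactonase gene, had 58, 61 and 101 antisense normalised counts in *jhd2Δ* and 38.5, 29 and 21.6 in WT (log2 1.32) and a sense log2 fold change of -0.65. *YGP1*, a secreted glycoprotein gene of nutrient stress, had 61.1, 58 and 57.3 antisense normalised counts in *jhd2Δ* and 32.6, 27.2 and 23.4 in WT (log2 1.09) and a sense log2 fold change of -0.78.

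Over *HXT3*, a low-affinity hexose transporter gene, antisense counts fell to 14.5, 15 and 23.1 in *jhd2Δ*, against 61.2, 48 and 50.5 in WT (log2 -1.59, adjusted p = 3.89e-08), and they were also lower than in each other mutant. The sense transcript of *HXT3* was not called. Some antisense falls lay beside a sense transcript on that strand that fell too. Antisense counts over *YLR326W* were 4.14, 9 and 5.02 in *jhd2Δ* and 28.6, 29.9 and 18 in WT, and *TMA10*, a stress gene on the strand of those reads 231 bases away, fell in sense (log2 -1.35). Over *SHB17*, the gene of a sugar bisphosphatase, they were 14.5, 15 and 17.1 in *jhd2Δ* and 52.3, 78.8 and 69.4 in WT (log2 -2.10, adjusted p = 8.9e-13), with *UTH1*, 273 bases away on that strand, at -0.42 in sense and not called. How far such reads come from the neighbour was not tested. Of the other large antisense changes, the rises of *ISA1*, an iron-sulfur assembly gene, *EDE1*, an endocytosis gene, and *FYV5* (log2 2.23, 1.54 and 1.58) and the falls of *MGR3*, a gene of mitochondrial protein turnover, and *HXT1* (log2 -2.38 and -2.37) were called whichever library was left out. The falls of *MGR3* and *HXT1* rest on few reads. Antisense raw counts over *MGR3* were 2, 1 and 2 in *jhd2Δ* and 10, 9 and 11 in WT. Over *HXT1* they were 7, 2 and 4 in *jhd2Δ* and 23, 26 and 26 in WT. *FYV5* overlaps *ADF1* on the opposite strand (gap of 0 bases), so its antisense reads can be sense reads of *ADF1*, which was not tested. Opposite-strand features also lay 247 bases from *MGR3* (*ASC1*) and 384 bases from *EDE1* (*PSY4*). *SYP1* (log2 1.60) was at 1.28 without *jhd2Δ* replicate 1 and not called. *POP3* (log2 1.56) lost its call in 4 of the 6 such fits, at 1.15 to 1.51, and *SEN54* (log2 -1.98) in 5 of 6, at -2.38 to -1.67. *MTH1*, *SOL4*, *HXT3* and *PHO84* had no annotated feature on the opposite strand within 1000 bases.

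In all, 29 of the 2586 genes tested on both strands were called on both. The sense test covered 162 of the genes with an antisense call. Over all transcripts 12.2% were called in sense and 6.21% in antisense. Whether the 29 exceed what these shares give was not tested. Apart from *JHD2*, whose deletion removes both strands, sense and antisense moved in opposite directions in 16 genes, 10 with lower sense and higher antisense and 6 with higher sense and lower antisense, and in the same direction in 12, 9 lower and 3 higher. The 10 included the glycogen genes *GPH1* and *GAC1*, and the 6 included *PHO84*, *RNR1*, *UTP7* and *PDR5*. Several of these antisense calls were lost when 1 library was left out. That of *RNR1* was -1.43 without *jhd2Δ* replicate 3 and that of *GPH1* 0.66 without WT replicate 1 and 0.65 without *jhd2Δ* replicate 1. *GAC1* was 0.56 and 0.64 without WT replicates 1 and 2 and 0.51 without *jhd2Δ* replicate 3. *UTP7* was -1.24 without WT replicate 2 and -1.22 without *jhd2Δ* replicate 3, and *PDR5* -1.32 without WT replicate 3 and -1.20 and -1.30 without *jhd2Δ* replicates 1 and 3. *HXT4* was 1.47 and 1.57 without WT replicates 1 and 3 and 0.99 without *jhd2Δ* replicate 1. Beside *UTP7*, 177 bases away on the strand of its antisense reads, *SER3* of serine synthesis fell, with 1664, 1830.4 and 1813 normalised counts in *jhd2Δ* and 18337, 21526 and 20379.5 in WT (log2 -3.50). *SRG1*, the noncoding transcript that runs over the *SER3* promoter, had 643, 579.8 and 568 in *jhd2Δ* and 858, 882 and 908 in WT (log2 -0.56), short of 1.5-fold, and passed it at -0.61 without *jhd2Δ* replicate 1. The *SRG1* feature (chromosome V, 322212 to 322762) overlaps that of *SER3* (322686 to 324095) on the same strand. Its counts can therefore include *SER3* reads, which was not tested. The study describes *SRG1* transcription as unaffected in the mutant.

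**Figure D5:**
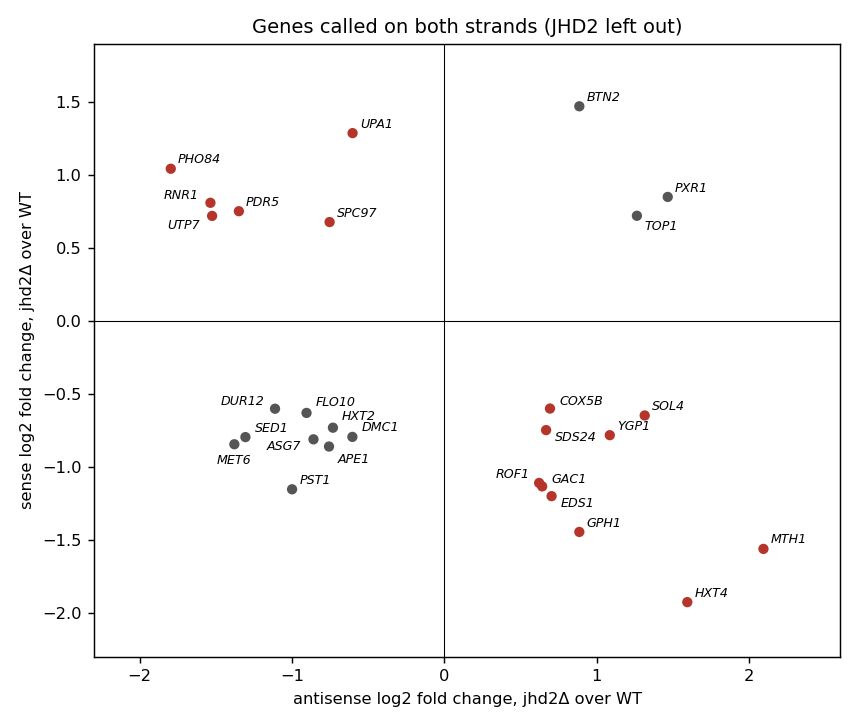
Antisense (horizontal) and sense (vertical) log2 fold change in *jhd2Δ* over WT of the 28 genes other than *JHD2* called on both strands, with opposite directions in red and the same direction in grey. *MTH1* and *HXT4* lie farthest towards higher antisense and lower sense, and *PHO84* farthest towards the reverse.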

How the data were processed

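Per the labels, 15 stranded total RNA libraries after rRNA removal were sequenced, 3 cultures of each of 5 strains. The labels name a stranded library kit and the study's methods another TruSeq kit; the antisense values are read here as strand-specific, as the labels give them. The authors used Novoalign, listed as 2.8.1 by the submitters, to align reads to sacCer3 with splice junctions, and deposited whole-number counts of reads overlapping each feature by at least 1 base, in a sense and an antisense table. They set 436 sense and 1026 antisense features apart as low. Their fold changes, p-values, rlog and FPKM columns were not used.

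From the counts, edgeR 4.0.16 quasi-likelihood models with a mean per strain were fitted to all 15 libraries of each strand (TMM, filterByExpr with a minimum count of 10, Benjamini-Hochberg adjustment). Normalised counts are counts divided by the effective library size relative to its mean. The script was tested on simulated counts. DESeq2 1.42.0, other scalings, filters and thresholds, a replicate block, the 6 libraries alone and leaving out each library were the alternatives. Members and gene lists were chosen with earlier results of these data known. Genes named were *JHD2* and its neighbours, *SET1*, several the study names, the 12 largest sense and 6 largest antisense changes each way among non-overlapping calls, up to 4 called members per list, calls apart from all strains, and genes called on both strands. Other list members are given with values. Upstream windows came from the RefSeq R64 genome.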

Additional observations from a re-analysis of the deposited data

How the results depend on the processing

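The counts of sense calls, 390 higher and 296 lower, moved most with stricter rules. They were 175 and 97 with glmTreat and 109 and 58 at 2-fold and an adjusted p under 0.01. The antisense counts, 74 higher and 90 lower, were 6 and 11 with glmTreat, 19 and 24 at 2-fold, 39 and 36 with DESeq2, which gave no adjusted p for 1791 of the 2640 transcripts, and 51 and 140 with sense library sizes. The transcripts apart from all strains, 2 higher and 6 lower, were 1 and 3 with glmTreat, an alternative added after seeing the data. Leaving out 1 library gave 386 to 409 and 258 to 306 sense calls, 52 to 69 and 61 to 79 antisense calls, and 2 to 3 and 5 to 9 transcripts apart. With a replicate block there were 392 and 292 sense and 76 and 91 antisense calls. Same-numbered libraries correlated at 0.151, 0.245 and 0.0978 in sense and 0.0057, 0.0289 and 0.0619 in antisense, so the numbers were not taken to pair the cultures. In sense each *jhd2Δ* library correlated best with the WT library of its number, which in antisense did not hold for replicate 1. Of 2347 values of 181 named transcripts under the alternatives, 2215 kept direction and side of the threshold, 131 fell short of it (71 with glmTreat), 1 newly passed it and 0 changed sign. Antisense depth, 89883 to 104229 counts per library, limits what can be called on that strand. Each group had 3 cultures, and the related gene copies named above can share reads.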
